A study of Mus musculus with 28 samples.

Results

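Expression of the collagens, laminins and integrins was examined in mouse embryonic stem cells (ESCs) that differ in Tet2, which encodes a dioxygenase that oxidises 5-methylcytosine. Members were chosen by gene symbol alone (Col, Lam or Itg followed by the chain's number or letter), with 3 integrin-binding proteins of similar symbol set aside. They number 67 of the 17342 genes in the expression table: 36 collagens, 10 laminins and 21 integrins. Some chains of each family, such as Col4a3, Lamc3 and Itga2, are not in that table, so the counts do not cover whole families. All 67 passed the filter on low values and were tested.

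RNA-seq covered 7 libraries of the V6.5 line, a male ESC line of mixed 129/C57BL/6 background. Tet2-WT had n = 3 independent wildtype cultures, Tet2-Mut had n = 2 clones labelled Tet2 mutant, and Tet2-KO had n = 2 clones labelled Tet2 knockout; the labels do not describe the mutant allele. Cells of all 3 groups were grown on feeder cells in serum and LIF, separated from the feeders by pre-plating and kept overnight on gelatin before RNA was taken. A difference between groups of 2 clones can belong to the clones as well as to the genotype. Where a fit below leaves out a clone, its group is left with a single clone, and the spread comes from the other groups. The series asks what Tet2 does in ESC gene expression beyond its catalytic activity.

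Collagens are trimers of alpha chains wound into a triple helix. Fibrillar collagens build tensile fibres, collagen IV and the laminins form the sheets of the basement membrane, and integrins are heterodimers of an alpha and a beta chain that bind these ligands and connect them to the actin cytoskeleton. In the early embryo, laminins and collagen IV make up the first basement membranes, whereas fibrillar collagens are a hallmark product of mesenchymal cells and fibroblasts.

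Values below are normalized counts, gene counts scaled for library size, and are read across libraries, not between genes, since a longer transcript collects more reads. The libraries held 41.9 M to 58.5 M reads assigned to genes, and 3 reads corresponded to 2.50 to 3.54 normalized counts. Tet2 itself was at 10343, 10245 and 12074 in Tet2-WT, 9992 and 13181 in Tet2-Mut, and 4624 and 5206 in Tet2-KO. It fell in Tet2-KO (log2 fold change -1.15, limma adjusted p = 0.00522) and did not pass the test in Tet2-Mut (0.08, adjusted p = 0.763). All 12 ESC markers checked, Pou5f1, Nanog and Sox2 among them, were above 0 in every library; their summed normalized count was 290449 in Tet2-KO replicate 1 and 345803 to 358872 in the other 6 libraries. In Tet2-KO 1 of the 12 had a positive log2 fold change (median -0.17) and Tdgf1, a Nodal co-receptor, fell (-0.37, adjusted p = 0.0231). In Tet2-Mut 5 of 12 were positive (median -0.09) and Nanog fell (-0.37, limma adjusted p = 0.0457). Of the 12, edgeR called 1 in Tet2-KO and 0 in Tet2-Mut, and DESeq2 called 3 in each. The Tdgf1 call ended without Tet2-KO replicate 1, the Nanog call without Tet2-Mut replicate 2, and both without each wildtype culture in turn. In Tet2-KO 6 markers were called without Tet2-KO replicate 2 and 3 without Tet2-Mut replicate 1 or 2, and in Tet2-Mut 3 without Tet2-KO replicate 1 or 2 and 2 without Tet2-Mut replicate 1.

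Feeder cells are fibroblasts, and a list of fibroblast markers without collagens or integrins was therefore read beside the members. Of 26 listed genes 22 were in the table, none of them at 0 in any library. Their summed normalized count was 7457 to 7546 in Tet2-WT, 9059 and 10494 in Tet2-Mut, and 18476 and 10550 in Tet2-KO replicates 1 and 2. The median difference of these markers from the Tet2-WT mean was 1.19 and 0.60 (log2) in the Tet2-KO clones and 0.38 and 0.32 in the Tet2-Mut clones. In Tet2-KO 6 of the 22 rose and 0 fell by limma (all genes 3% higher and 2.91% lower). Among the 6 were Tagln (2.27, adjusted p = 0.00768), a smooth muscle and myofibroblast actin-binding protein, and Prrx1 (2.04, adjusted p = 0.027), a mesenchymal transcription factor. Of the 22 log2 fold changes in Tet2-KO 21 were positive (median 0.90), and 15 had an unadjusted limma p under 0.05. There edgeR called 8 and DESeq2 called 11. In Tet2-Mut 19 of 22 were positive (median 0.42) and 0 were called by limma. Of these 22, 7 had an unadjusted p under 0.05, edgeR called 0 and DESeq2 called 3. In Tet2-KO against Tet2-Mut limma called 4, all higher (all genes 2.64% higher). Of the 6 Tet2-KO calls 1 (Tagln) remained without Tet2-KO replicate 1 or Tet2-WT replicate 1 or 2, and 0 without Tet2-WT replicate 3 (14 with an unadjusted p under 0.05). The fibrillar collagens described next had class medians of 1.59 and 0.79 in the Tet2-KO clones, where these markers were also high. In Tet2-Mut replicates 1 and 2 the fibrillar medians were 0.38 and -0.02, so in replicate 2 only the markers were raised. The part of these markers in the collagen results was not tested. In such bulk RNA, fewer or more cells of a type and less or more RNA per cell cannot be told apart.

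Tet2-KO against Tet2-WT gave 8 called members of 67 (limma on log2(normalized count + 1), Benjamini-Hochberg adjusted p under 0.05), 6 higher and 2 lower; over all genes tested 5.91% were called, 3% higher and 2.91% lower. Col1a1, Col1a2, Col5a1, Col5a2, Col7a1 and Lamb1 rose, and Col5a3 and Itgb7 fell. By family these were 6 of 36 collagens, 1 of 10 laminins and 1 of 21 integrins. The median log2 fold change was 0.63 for collagens, 0.32 for laminins and -0.04 for integrins, against 0.00 for all genes. Groups of libraries did not overlap for 28 members higher and 9 lower in Tet2-KO, where 21.9% and 22.8% of all genes did the same. The calls need most of the libraries: 0 members remained called without Tet2-WT replicate 1 or replicate 3 (19 with an unadjusted p under 0.05 in each case), 1 without Tet2-WT replicate 2 (Col5a1), and none of the 8 without Tet2-KO replicate 1, when only Lamb2, lower, was called. Leaving out either Tet2-Mut clone raised the count to 13 or 14. Without Tet2-KO replicate 2, only Col5a3 of the 8 lost its call, so the calls lean on replicate 1 more than on replicate 2. The median difference of the collagens from the Tet2-WT mean was 0.76 in Tet2-KO replicate 1 and 0.41 in replicate 2. With all 7 libraries, edgeR called 8 and DESeq2 14.

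**Figure D1:**
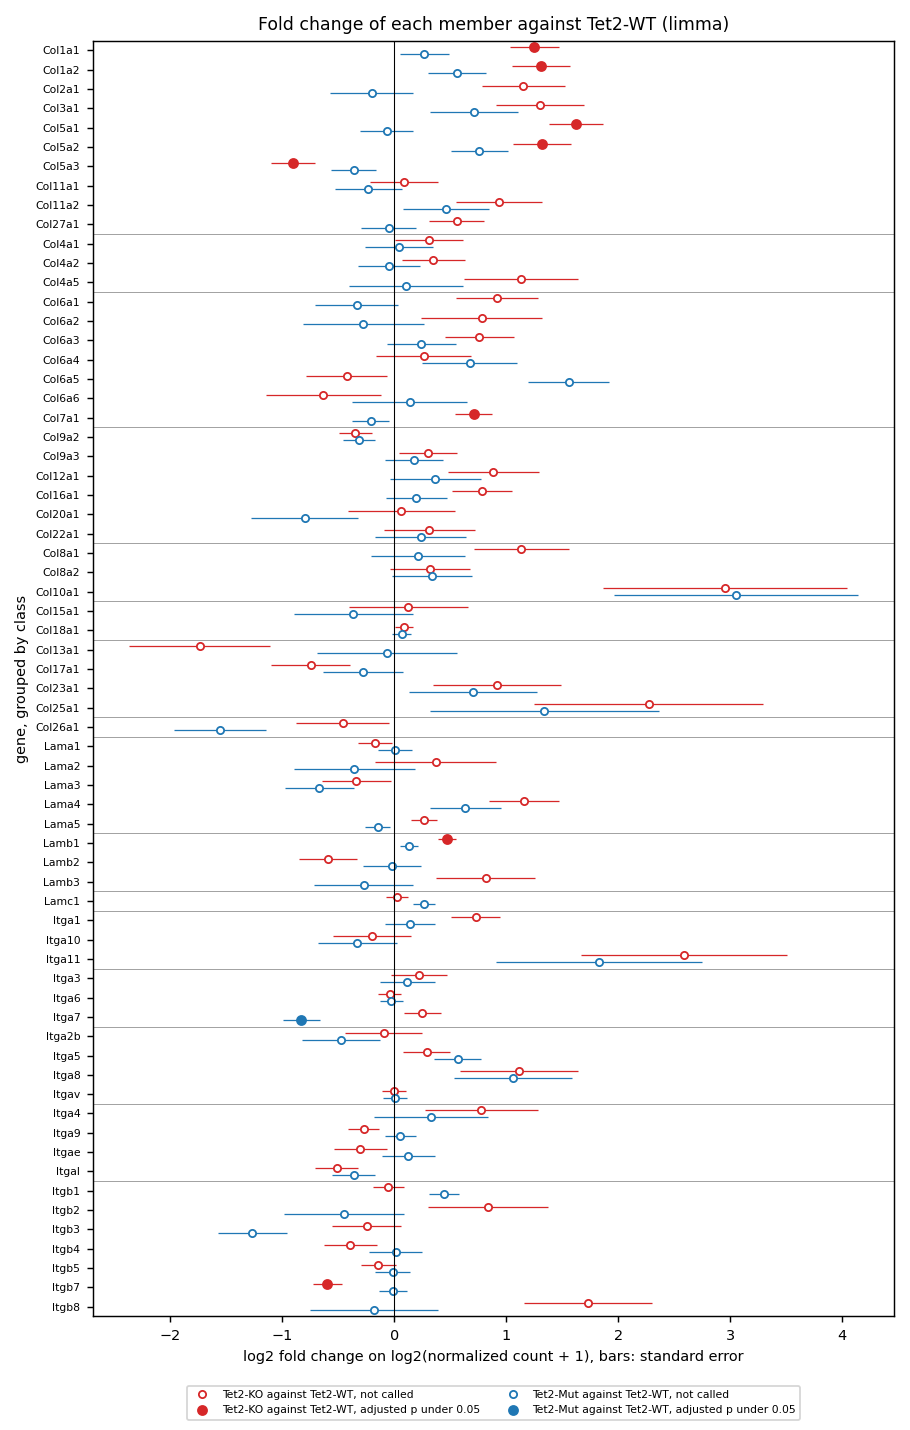
Log2 fold change against Tet2-WT of 66 members, grouped by class, with the standard error as bars; red is Tet2-KO, blue is Tet2-Mut, and filled points passed the test. Filled red points lie to the right among the fibrillar collagens apart from Col5a3, and the only filled blue point is Itga7.

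Fibrillar collagens made up 5 of the 8 calls. Of the 10 measured, 4 rose and 1 fell in Tet2-KO, the remaining 5 did not pass the test, and the median log2 fold change was 1.20. Collagen I, the main fibre of skin and bone, is a trimer of Col1a1 and Col1a2 chains. Col1a1 (chr11:94936224-94953042, GRCm38.p6) was at 782, 693 and 733 in Tet2-WT, 1137 and 689 in Tet2-Mut, and 2123 and 1444 in Tet2-KO. Both Tet2-KO clones lay above every other library (log2 fold change against Tet2-WT 1.25, SE 0.22, adjusted p = 0.0173), and the mean of 1784 ± 480 (SD, n = 2) compared with 736 ± 44.8 (n = 3). For Col1a2 (chr6:4505618-4541543) the values were 341, 286 and 316, then 600.3 and 355, then 997 and 608. Again the Tet2-KO clones were the highest (1.31, SE 0.26, adjusted p = 0.0249), although Tet2-KO replicate 2 exceeded Tet2-Mut replicate 1 by little. The ratio of Col1a1 to Col1a2 counts, a ratio within a library, stayed between 1.89 and 2.42 in all 7 libraries. Neither chain was called when Tet2-KO replicate 1, or each wildtype culture in turn, was omitted, and the log2 fold changes over all single omissions ran from 0.97 to 1.53 for Col1a1 and from 0.95 to 1.66 for Col1a2.

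Collagen V regulates the diameter of collagen I fibrils, and its 3 chains did not move together. Col5a1 (chr2:27886381-28039510) had the largest called change in Tet2-KO against Tet2-WT among the members, with 1098, 1138 and 808 in Tet2-WT, 1221 and 749 in Tet2-Mut, and 3739.5 and 2552 in Tet2-KO. It rose in Tet2-KO by 1.62 (SE 0.24, adjusted p = 0.0104), a 3.08-fold difference, with both clones above all other libraries. Its partner Col5a2 stood at 138, 134 and 152, at 264 and 218 in Tet2-Mut, and at 481 and 261 in Tet2-KO. Col5a2 rose against Tet2-WT (1.32, SE 0.26, adjusted p = 0.0243), but Tet2-KO replicate 2 lay level with Tet2-Mut replicate 1, and Tet2-Mut against Tet2-WT gave 0.76 (adjusted p = 0.142). Col5a3 (chr9:20770050-20815117), a chain of more restricted expression, went the other way, from 445, 495 and 361 in Tet2-WT to 339 and 329.9 in Tet2-Mut and 272 and 192 in Tet2-KO. It fell in Tet2-KO (log2 fold change -0.91, SE 0.20, adjusted p = 0.0333), and the 3 groups did not overlap. The ratio of Col5a1 to Col5a3 counts, chosen after the values were seen and not tested, was 2.24 to 2.47 in Tet2-WT, 3.60 and 2.27 in Tet2-Mut, and 13.7 and 13.3 in Tet2-KO. Without each Tet2-WT culture in turn or either Tet2-KO clone Col5a3 was not called (log2 fold change -1.16 to -0.66 over the omissions). Without Tet2-KO replicate 1 or Tet2-WT replicate 1 or 3 Col5a1 was not called (1.35 to 1.90). Col5a2 lost its call without Tet2-KO replicate 1 or each wildtype culture in turn (0.88 to 1.76).

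**Figure D2:**
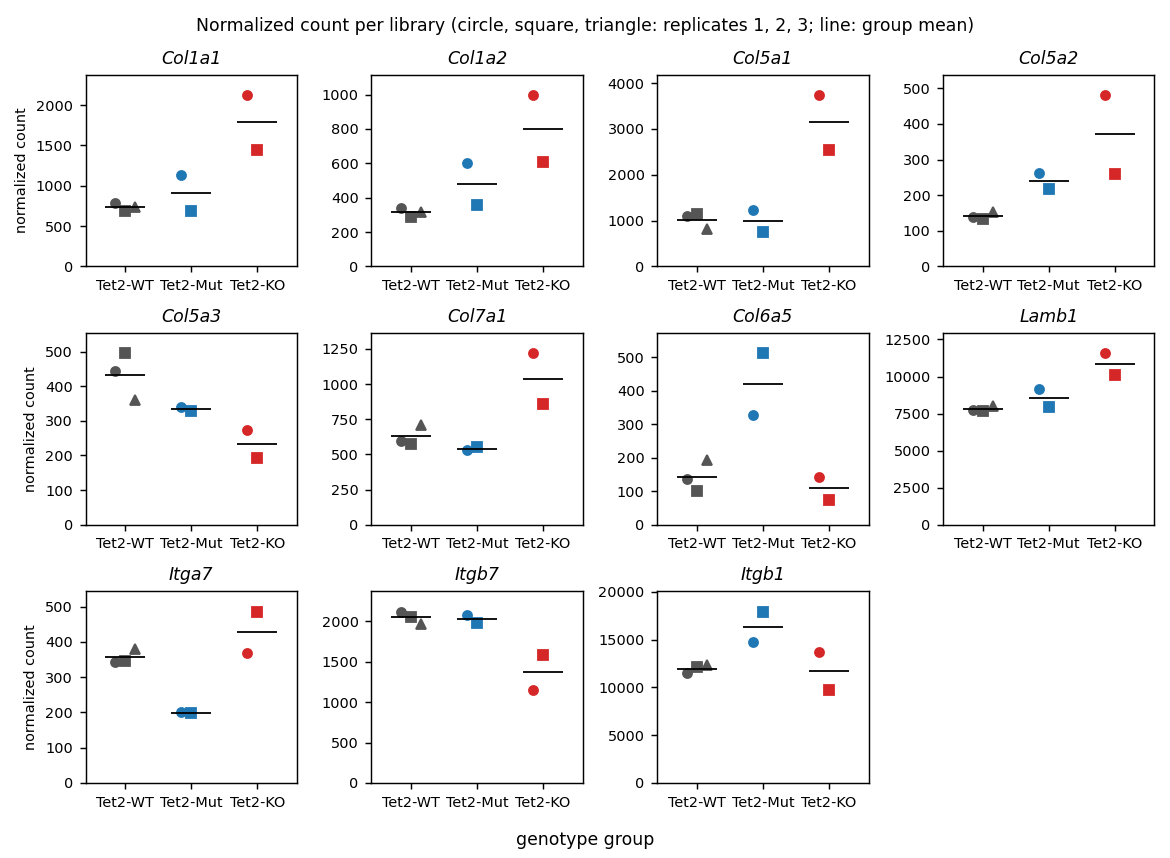
Normalized counts of 10 members called in at least 1 comparison, and of Itgb1, in each of the 7 libraries (points), with the group mean as a line. The Tet2-KO clones sit above the other libraries for Col1a1, Col5a1, Col7a1 and Lamb1, and below them for Col5a3 and Itgb7.

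Promoter sequence is shown for 3 of these chains, Col1a2 and Col5a1, which rose, and Col5a3, which fell, so that the opposite directions can be read beside the bases upstream of each gene. Each stretch is the first 200 bases of the gene's promoter entry in RefSeq (GRCm38.p6), 5′ to 3′ on the gene's strand. Counted from the start of the gene's span given above, the Col1a2 stretch runs from 250 to 51 bases upstream. The Col5a1 stretch runs from 206 to 7 and the Col5a3 stretch from 200 to 1. For Col5a1 and Col5a3 the entry's own start, 250 bases after its first base, lies 44 and 50 bases inside the span. Capitals mark GGGCGG, the letters of a GC box, CCAAT, and the reverse complement of either.
Col1a2, chr6:4505368-4505567, plus strand: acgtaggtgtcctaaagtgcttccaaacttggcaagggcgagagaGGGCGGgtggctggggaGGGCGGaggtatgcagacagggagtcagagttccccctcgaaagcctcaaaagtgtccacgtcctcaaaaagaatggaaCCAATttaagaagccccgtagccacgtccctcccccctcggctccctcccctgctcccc
Col5a1, chr2:27886175-27886374, plus strand: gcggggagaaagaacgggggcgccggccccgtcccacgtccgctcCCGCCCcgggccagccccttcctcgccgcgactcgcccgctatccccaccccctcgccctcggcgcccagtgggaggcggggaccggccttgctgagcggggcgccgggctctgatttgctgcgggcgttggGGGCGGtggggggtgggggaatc
Col5a3, chr9:20815118-20815317, minus strand: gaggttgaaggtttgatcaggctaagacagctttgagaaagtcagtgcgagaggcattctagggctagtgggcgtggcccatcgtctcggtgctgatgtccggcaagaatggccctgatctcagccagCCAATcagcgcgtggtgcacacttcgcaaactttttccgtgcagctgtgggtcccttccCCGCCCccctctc
By that count Col1a2 carried GGGCGG 205 and 188 bases and CCAAT 109 bases before the span. Col5a1 had GGGCGG 161 bases (opposite strand) and 29 bases before it and no CCAAT in this window, and Col5a3 had CCAAT at 72 and GGGCGG at 13 bases (opposite strand). Among 52 windows of 48 members with a RefSeq entry, 50% held GGGCGG on either strand, 23.1% CCAAT and 7.69% TATAAA, and among all 32851 windows of the same length 24.6%, 28.4% and 9.14%. For these shares each window lies 250 to 51 bases before its promoter entry's own start. The 32851 windows are not limited to genes of the expression table, and no share over the genes tested was computed. A match here is a run of letters and not a measured site.

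Of the other fibrillar chains, Col3a1 (99.9, 81.9 and 51.9 in Tet2-WT, 177 and 86.8 in Tet2-Mut, 237 and 147 in Tet2-KO) and the cartilage chain Col2a1 (327, 359.6 and 339, then 442 and 199.7, then 1135 and 509) had log2 fold changes of 1.30 and 1.15 in Tet2-KO. Neither passed the test (adjusted p = 0.0876 and 0.104). For Col3a1 the Tet2-KO and Tet2-Mut clones overlapped, and for Col2a1 both Tet2-KO clones were above all others, replicate 1 by far. Col11a2 (0.93), Col27a1 (0.56) and Col11a1 (0.09) were not called either. Tet2-KO replicate 1 was the highest of the 7 libraries for 9 of the 10 fibrillar chains. The median difference of the class from the Tet2-WT mean was 1.59 in that clone and 0.79 in Tet2-KO replicate 2, against 0.38 and -0.02 in the Tet2-Mut clones.

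Col7a1 forms the anchoring fibrils that tie epithelial basement membranes to the matrix below. Its counts were 595, 576 and 710.5 in Tet2-WT, 530.3 and 549 in Tet2-Mut, and 1218 and 856 in Tet2-KO. It rose against Tet2-WT (0.71, SE 0.16, adjusted p = 0.0407) and against Tet2-Mut (0.92, adjusted p = 0.0200), and both clones exceeded every other library; without Tet2-KO replicate 1 neither call remained (0.45 and 0.67), and without each Tet2-WT culture in turn the first was also lost. The collagen VI chains, which make beaded microfilaments, did not pass the test against Tet2-WT. Col6a1, Col6a2 and Col6a3 had log2 fold changes of 0.92, 0.78 and 0.76, and the Tet2-KO clones did not overlap the Tet2-WT cultures for any of the 3. The ratio of Col6a1 to Col6a2 counts ran from 0.82 to 1.84 over the 7 libraries. Col6a5 differed between the mutant groups: 137, 99.8 and 194 in Tet2-WT, 327 and 512 in Tet2-Mut, and 142 and 74.4 in Tet2-KO. It was lower in Tet2-KO than in Tet2-Mut (-1.98, SE 0.40, adjusted p = 0.0214), with the Tet2-Mut clones above all other libraries, and the difference of Tet2-Mut from Tet2-WT just missed the threshold (1.56, adjusted p = 0.0529). The Col6a5 call was lost without Tet2-WT replicate 1, Tet2-Mut replicate 2 or Tet2-KO replicate 2 (-2.44 to -1.52 over the omissions).

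Collagen IV, the network collagen of basement membranes, showed wide spread within groups. Col4a1 was at 1357, 1220.1 and 2234 in Tet2-WT, 1250.1 and 2019 in Tet2-Mut, and 2461 and 1491 in Tet2-KO. Its obligate partner Col4a2 was at 804, 715 and 1276, then 717 and 1065, then 1429.5 and 923. Both chains overlapped between all groups (log2 fold changes in Tet2-KO 0.31 and 0.35, adjusted p = 0.602 and 0.505), yet their ratio within a library stayed between 1.61 and 1.90. The 2 genes lie head to head on chromosome 8 with spans that overlap by 85 bases. The median log2 fold change of the 861 genes tested on that chromosome was -0.26 in Tet2-KO and 0.27 in Tet2-Mut against Tet2-WT, and the part of this shift in the values of Col4a1, Col4a2 and Itgb1 was not tested. Col18a1, a basement membrane collagen that yields endostatin, was at 24189, 24611 and 26037 in Tet2-WT, 24622 and 27595 in Tet2-Mut, and 28639 and 24452 in Tet2-KO. All groups overlapped for it (0.09 in Tet2-KO, 0.06 in Tet2-Mut, neither called).

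The other collagen classes held no called member in Tet2-KO by limma or edgeR or DESeq2, with 2 of 6 fibril-associated, 2 of 3 short-chain network and 1 of 4 transmembrane chains at an unadjusted p under 0.05. Col9a2, the fibril-associated chain with the highest count, was at 982, 932 and 921 in Tet2-WT, 884 and 652 in Tet2-Mut, and 677 and 814 in Tet2-KO, below Tet2-WT in all 4 clones (-0.35 in Tet2-KO, adjusted p = 0.196). Col13a1, a transmembrane collagen, had the largest negative value in Tet2-KO against Tet2-WT, with 99.0, 75.3 and 57.8 in Tet2-WT, 33.0 and 157 in Tet2-Mut, and 14.5 and 33.1 in Tet2-KO (-1.74, adjusted p = 0.139). Col17a1, the hemidesmosome collagen, was at 166, 124 and 170.0, then 109 and 143, then 58.8 and 138, overlapping throughout. Col8a1 had 20.0, 39.5 and 30.7 in Tet2-WT, 39.1 and 28.9 in Tet2-Mut, and 84.6 and 49.6 in Tet2-KO (1.14, adjusted p = 0.148). Col26a1 was at 116, 74.4 and 72.0, then 41.2 and 19.3 in Tet2-Mut, then 49.5 and 76.5 (-1.56 in Tet2-Mut, adjusted p = 0.0743). Col10a1 was at 0 in Tet2-WT replicates 1 and 2 and at most 36.1 in the others.

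**Figure D3:**
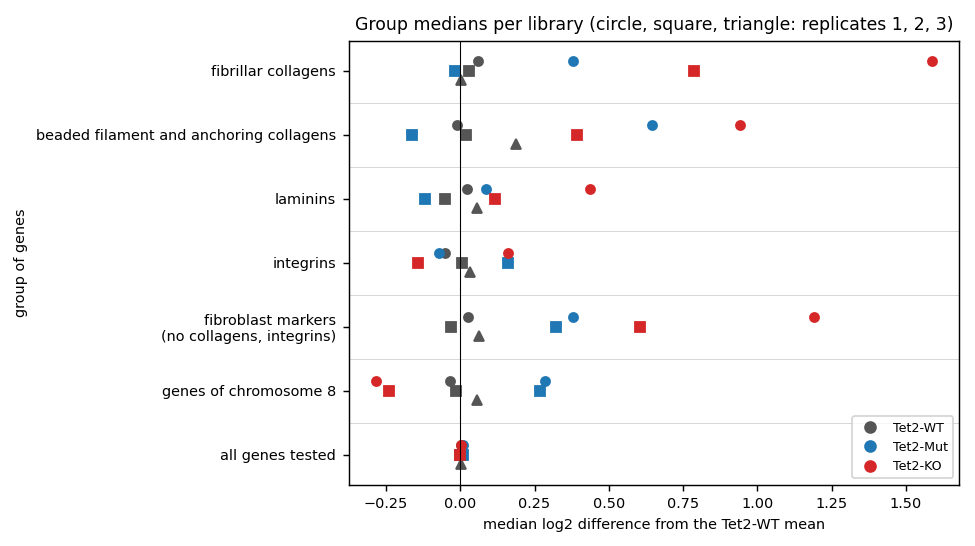
Median log2 difference from the Tet2-WT mean in each library (points) for 4 groups of members, the fibroblast markers, the genes of chromosome 8 and all genes tested. Tet2-KO replicate 1 is at 1.59 and replicate 2 at 0.79 for the fibrillar collagens, and the integrins lie between -0.14 and 0.16 in every library.

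Laminins are cross-shaped trimers of an alpha, a beta and a gamma chain. ESCs assemble laminins from Lama1 or Lama5 with Lamb1 and Lamc1. Lamb1 (chr12:31265146-31329644) was the only laminin called by limma in Tet2-KO against Tet2-WT. Of the 10 laminins 7 had a positive log2 fold change there and 5 an unadjusted limma p under 0.05. For this family edgeR called 1 and DESeq2 called 3. Lamb1 was at 7714, 7681 and 7998 in Tet2-WT, 9143 and 7976 in Tet2-Mut, and 11562 and 10080.4 in Tet2-KO. The change was small, 0.47 (SE 0.08, adjusted p = 0.0178), but both Tet2-KO clones stood above every other library. The call ended when Tet2-KO replicate 1, or each wildtype culture in turn, was omitted (0.37 to 0.57 over the omissions). The gamma partner Lamc1 did not follow, with 22663, 22799 and 25895 in Tet2-WT, 27325 and 29888 in Tet2-Mut, and 26721 and 21793 in Tet2-KO (0.02, adjusted p = 0.92). Lama5 was at 17061, 15395 and 15147, then 15507 and 13149, then 21593 and 16806; replicate 1 of Tet2-KO was high and replicate 2 lay within the Tet2-WT range (0.27, adjusted p = 0.203). Lama1 was at 4230.1, 4668 and 5266, then 4299 and 5173, then 3529 and 4954, with all groups overlapping (-0.17, adjusted p = 0.555).

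Lama3 and Lamb3, both chains of epithelial laminin, did not pass the test in any comparison. Lama3 was at 485, 416 and 487 in Tet2-WT, 369 and 228 in Tet2-Mut, and 532 and 250.2 in Tet2-KO, and Lamb3 at 104, 122 and 49.6, then 104 and 48.2, then 169 and 136. Lama4, a mesenchymal and endothelial chain, had 43.3, 34.8 and 37.8 in Tet2-WT, 75.2 and 48.2 in Tet2-Mut, and 92.9 and 81.7 in Tet2-KO, without overlap of the groups (1.16, adjusted p = 0.0645). Lamb2 was at 1844, 1592 and 1873, then 1619.8 and 1869.6, then 1711 and 796, so that only Tet2-KO replicate 2 stood low (-0.60, adjusted p = 0.208).

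Integrin alpha chains decide the ligand together with the beta chain. Of 14 alpha chains, none was called in Tet2-KO against Tet2-WT by limma or edgeR, DESeq2 called 1, and 3 had an unadjusted p under 0.05. The laminin receptor chain Itga6, a common ESC surface marker, was even across libraries: 9946, 10359 and 10823 in Tet2-WT, 9108 and 11353 in Tet2-Mut, 10889 and 9307 in Tet2-KO (-0.04, adjusted p = 0.855). Itga7 (chr10:128933421-128958286), the laminin receptor chain of muscle, was the only member called in Tet2-Mut against Tet2-WT, where 3.43% of all genes were called. Its counts were 344, 345 and 381 in Tet2-WT, 202 and 198 in Tet2-Mut, and 369.5 and 486 in Tet2-KO. It fell in Tet2-Mut (log2 fold change -0.83, SE 0.16, adjusted p = 0.0352), both Tet2-Mut clones lying below all 5 other libraries, and was higher in Tet2-KO than in Tet2-Mut (1.08, SE 0.18, adjusted p = 0.0106). The first call was lost without each Tet2-WT culture in turn or Tet2-Mut replicate 2 (-0.86 to -0.78). The second held without each Tet2-WT culture in turn (0.88 to 1.28 over all omissions). It was lost with only the 2 groups compared, and with a prior that does not follow the mean. The span of Itga7 overlaps that of Mettl7b by 10 bases.

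The other alpha chains did not pass the test. Itga5, the fibronectin receptor chain, was at 3156, 3515 and 3772, then 4326 and 6115 in Tet2-Mut, then 5489 and 3270.2 in Tet2-KO (0.57 in Tet2-Mut, adjusted p = 0.173). Itgav, which pairs with several beta chains to bind vitronectin and latent TGF-beta, was nearly level with 1862, 1727 and 1618, then 1708 and 1769, then 1907 and 1570.5. The collagen receptor chains Itga1 (396, 337 and 489.8 in Tet2-WT, 364 and 542 in Tet2-Mut, 762 and 584 in Tet2-KO) and Itga11 (25.8, 15.1 and 1.18, then 42.2 and 27, then 66.1 and 50.7) were without overlap higher in Tet2-KO than in Tet2-WT. Their log2 fold changes were 0.73 (adjusted p = 0.0888) and 2.59 (adjusted p = 0.134); the low value of Itga11 in Tet2-WT replicate 3 is under the count of 3 reads. Itga9 was at 1173, 1216 and 1421, then 1180.1 and 1464, then 955 and 1146, with both Tet2-KO clones lowest (-0.28, adjusted p = 0.269). Itga3, the epithelial laminin receptor chain, was at 5845, 6342 and 6891, then 5014 and 9448, then 9092 and 6007, with the spread within each clone group larger than the difference from Tet2-WT.

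Among the 7 beta chains, Itgb7 (chr15:102215994-102233405) fell in Tet2-KO. This chain pairs with Itga4 or Itgae in lymphocyte homing receptors. It was at 2121, 2058 and 1969.8 in Tet2-WT, 2085 and 1983 in Tet2-Mut, and 1149.8 and 1589 in Tet2-KO. The Tet2-KO clones lay below all other libraries, with log2 fold changes of -0.60 against Tet2-WT (SE 0.13, adjusted p = 0.0310) and -0.59 against Tet2-Mut (adjusted p = 0.0415). Both calls ended on omission of Tet2-KO replicate 1, or of each wildtype culture in turn, and the second also without either Tet2-Mut clone (from -0.83 to -0.37 against Tet2-WT, and from -0.82 to -0.36 against Tet2-Mut). Its partners had no call: Itga4 was at 33.3, 21.7 and 15.3, then 31.9 and 25.1, then 60.9 and 24.8, and Itgae at 91.5, 104 and 110.9, then 108 and 114, then 90.8 and 74.4.

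Itgb1, the common beta chain of the collagen, laminin and fibronectin receptors, was at 11476, 12097 and 12322 in Tet2-WT, 14779 and 17922 in Tet2-Mut, and 13743 and 9675 in Tet2-KO. The Tet2-Mut clones were the highest (0.44, adjusted p = 0.112), and the Tet2-KO clones lay on either side of Tet2-WT (-0.05, adjusted p = 0.866). Itgb3, the platelet and vitronectin receptor chain, was at 431, 375 and 301, then 113 and 201 in Tet2-Mut, then 408 and 232 in Tet2-KO. Its difference of -1.27 in Tet2-Mut did not pass the test (adjusted p = 0.0607). Itgb8, which with Itgav activates latent TGF-beta, was at 23.3, 26.4 and 11.8, then 24.7 and 11.6, then 107 and 41.4 in Tet2-KO, the highest libraries (1.73, adjusted p = 0.112). Itgb5 and Itgb4 had log2 fold changes of -0.14 and -0.39 in Tet2-KO, not called.

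**Figure D4:**
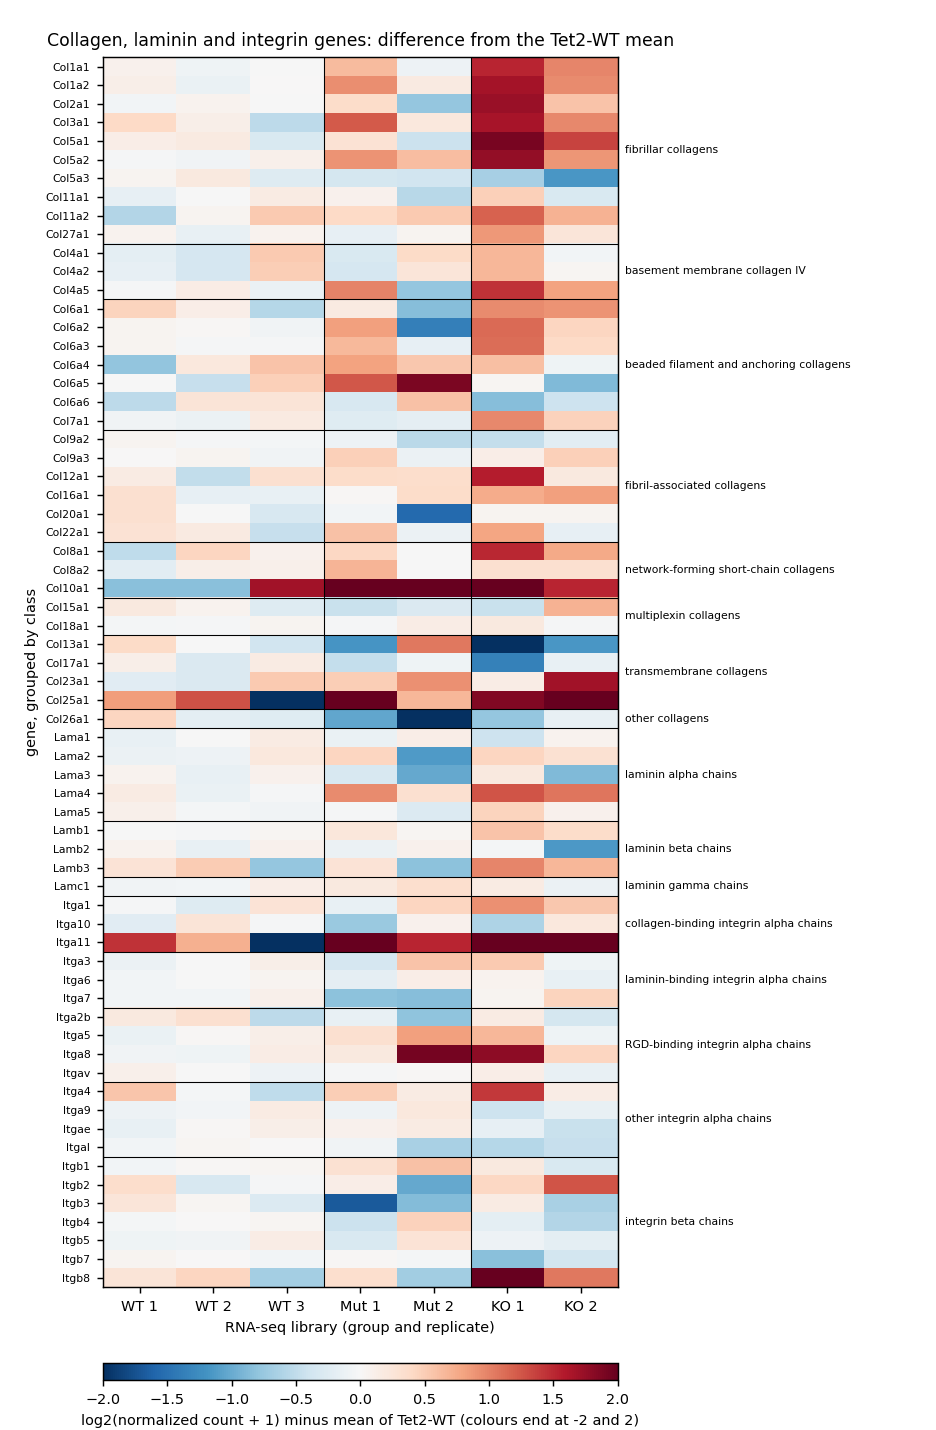
Log2 difference of each of 66 members from its Tet2-WT mean in each of the 7 libraries, as colour on a scale that ends at -2 and 2, with the members grouped by class. The column of Tet2-KO replicate 1 is the darkest red among the fibrillar collagens, where it holds the highest value for 9 of 10 chains.

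Tet2-Mut against Tet2-WT showed little over the set. Of 67 members 1 was called, Itga7, lower (all genes 1.98% lower), and 9 had an unadjusted p under 0.05; edgeR called 2 and DESeq2 6. None of the 36 collagens was called by limma (4 with an unadjusted p under 0.05, 1 by edgeR, 2 by DESeq2), nor any of the 10 laminins (1 with an unadjusted p under 0.05, 0 by edgeR and DESeq2). Groups did not overlap for 11 members higher and 10 lower, below the 20.9% and 19.8% of all genes. The median log2 fold change was 0.01 over all members and 0.11 over the fibrillar collagens, against 0.01 over all genes. Without Tet2-WT replicate 1, 2 or 3 the count of called members was 0 (7, 6 and 10 with an unadjusted p under 0.05), without Tet2-Mut replicate 1 it was 8, without Tet2-Mut replicate 2 it was 1 (Itgb3), and without either Tet2-KO clone it was 4.

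Tet2-KO against Tet2-Mut, which shares the Tet2-KO clones with the first comparison, gave 7 called members, where 6.19% of all genes were called. Col1a1 (0.98, adjusted p = 0.0451), Col5a1 (1.69, adjusted p = 0.0079), Col7a1 and Itga7 were among those higher, and Col6a5 and Itgb7 were lower; of all genes 2.64% were higher and 3.55% lower. Groups did not overlap for 23 members higher and 8 lower (all genes 23.3% and 21.5%). Over all single omissions the log2 fold change of Col5a1 ran from 1.34 to 2.04, and its call held without each Tet2-WT culture in turn. That of Col1a1 was lost without each Tet2-WT culture in turn, Tet2-Mut replicate 2 or Tet2-KO replicate 1. All 7 calls, Col5a1 and Itga7 included, were lost with only the 2 groups compared. The same held with a prior that does not follow the mean. The count was 3, 4 and 4 without Tet2-WT replicates 1, 2 and 3, 18 and 4 without Tet2-Mut replicates 1 and 2, and 5 and 9 without Tet2-KO replicates 1 and 2.

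The Tet2-KO clones did not share the pattern to the same degree. Tet2-KO replicate 1 was the highest of the 7 libraries for 33 of 67 members (49.3%, against 21.1% of all genes), for 21 of 36 collagens and 7 of 10 laminins, and for 5 of 21 integrins. Tet2-KO replicate 2 was the highest for 6 members (8.96%, against 12.8% of all genes). Tet2-Mut replicate 2 was the highest for 13 (19.4%, against 21.7% of all genes) and the lowest for 22 (32.8%, against 21.5%), and 9 of its 13 highest members were integrins. The clone with the most members at their highest was also the library with the largest sum of fibroblast markers and the smallest sum of ESC markers.

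**Figure D5:**
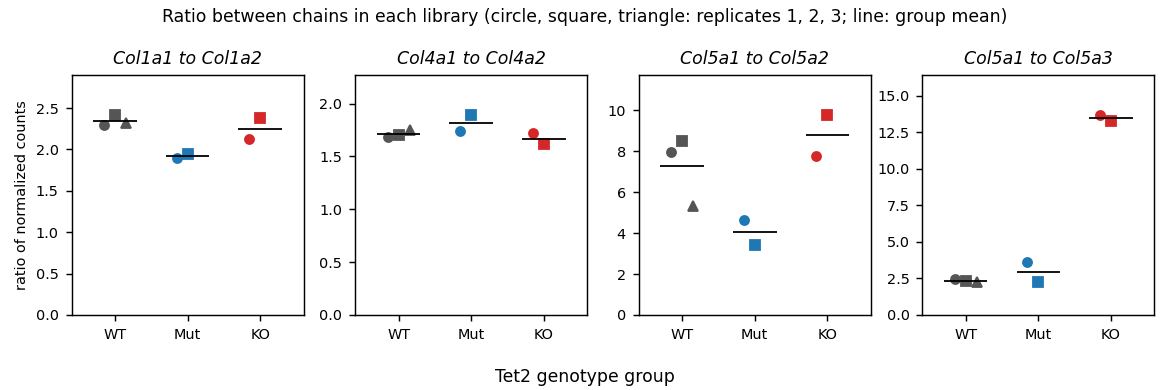
Ratio of the counts of chains from the same collagen in each library (points), with the group mean as a line. Col1a1 to Col1a2 and Col4a1 to Col4a2 stay within 1.61 to 2.42 in all 7 libraries, whereas Col5a1 to Col5a2 ranges from 3.43 to 9.79. Col5a1 to Col5a3 is at 13.7 and 13.3 in Tet2-KO against at most 3.60 elsewhere.

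Enzymes that make and crosslink collagen moved in both directions. Of 27 tested, 3 rose and 2 fell in Tet2-KO against Tet2-WT (all genes 3% higher and 2.91% lower), with a median of 0.01. Bmp1, which cleaves the procollagen C-terminus (495, 524 and 421 in Tet2-WT, 469 and 735 in Tet2-Mut, 1152 and 882 in Tet2-KO), and the crosslinking oxidase Lox (175, 229.7 and 156, then 327 and 224, then 753 and 359) rose by 1.07 and 1.49 (adjusted p = 0.0229 and 0.0314). P3h2, a prolyl 3-hydroxylase, rose by 2.62 from counts of at most 11.8 in Tet2-WT. The lysyl hydroxylase Plod1 and the collagen galactosyltransferase Colgalt1 fell (-0.82 and -0.36, adjusted p = 0.00857 and 0.0148). In Tet2-Mut P4ha2, a prolyl 4-hydroxylase subunit, and Loxl2 fell (-1.12 and -1.07, adjusted p = 0.0334 and 0.0234), and 0 rose. All 5 calls in Tet2-KO ended without Tet2-KO replicate 1 or each wildtype culture in turn (8 to 12 of 27 with an unadjusted p under 0.05), and both in Tet2-Mut without Tet2-Mut replicate 2 or each wildtype culture in turn.

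Basement membrane partners and laminin receptors had 3 of 19 higher and 1 lower in Tet2-KO (all genes 3% higher and 2.91% lower). Agrn (0.35), which links laminin to the cell surface, Pxdn (1.09), the peroxidase that crosslinks collagen IV, and Fras1 (2.28) rose, and the syndecan Sdc4 fell (-0.43). The nidogen Nid2, which bridges laminin and collagen IV, and Sdc4 fell in Tet2-Mut (-0.35 and -0.63, adjusted p = 0.0253 and 0.0227). Among 25 integrin adaptors and signalling genes 4 rose and 2 fell in Tet2-KO (all genes 3% and 2.91%). The focal adhesion protein Zyx (1206, 1259 and 1079.9 in Tet2-WT, 1443 and 1804 in Tet2-Mut, 4588 and 2489.6 in Tet2-KO) rose by 1.52 (adjusted p = 0.01), and Ddr1, a collagen receptor kinase (3057, 3206 and 2925, then 3276 and 2654, then 6153 and 4807), by 0.83 (adjusted p = 0.0104). Vcl and Actn1 rose by 0.72 and 0.36, and Parvb and Src fell (-1.17 and -0.42). Of the calls in these 2 lists, 0 remained without each wildtype culture in turn and 1 in each, Pxdn and Zyx, without Tet2-KO replicate 1; Fras1 and Sdc4 were also lost without Tet2-KO replicate 2. The Tet2-Mut calls of Nid2 and Sdc4 ended without Tet2-Mut replicate 2 or Tet2-WT replicate 1 or 2, and that of Nid2 also without Tet2-WT replicate 3. In Tet2-Mut 0 of the 25 were called by limma or edgeR, 2 by DESeq2, and 4 had an unadjusted p under 0.05.

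Of 20 other matrix glycoproteins and integrin ligands, 6 rose and 0 fell in Tet2-KO (all genes 3% higher and 2.91% lower). The median log2 fold change was 0.82. Tnc, an adhesion-modulating glycoprotein (261, 300.3 and 259.6 in Tet2-WT, 556 and 446 in Tet2-Mut, 1417 and 779.5 in Tet2-KO), rose by 1.94 (adjusted p = 0.00564). Thbs1, Thbs2, Ccn1, Bgn and Fbln2 rose by 1.76, 1.44, 1.78, 1.49 and 1.08. Both Bgn and Fbln2 also stand in the fibroblast list (summed 18476 and 10550 in Tet2-KO, 7457 to 7546 in Tet2-WT), and its part in this count was not tested. In Tet2-Mut Fbln1 alone was called, lower (-0.97, adjusted p = 0.0363), a call that ended without Tet2-Mut replicate 2 or each wildtype culture in turn. Tnc remained called in Tet2-KO without each wildtype culture in turn. Of the 6 calls, 1, 2 and 1 remained without Tet2-WT replicates 1, 2 and 3. Not all of the 6 remained without Tet2-KO replicate 1 or replicate 2.

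The 16 tested markers of primitive and parietal endoderm, a cell type that secretes laminin and collagen IV, summed to 29465 to 34296 over the 7 libraries, with Krt19 higher and Pth1r lower in Tet2-KO. Their median log2 fold change there was -0.02, with 8 of 16 positive. Of 7 leukocyte markers Cd68 was lower in Tet2-KO and 0 were called higher, 5 of 7 had positive log2 fold changes (median 0.34), and Ptprc is not analysed here. The median difference of the leukocyte markers from the Tet2-WT mean was 0.42 and 0.23 in Tet2-KO replicates 1 and 2. The calls of Krt19, Pth1r and Cd68 ended without Tet2-KO replicate 1 and without each wildtype culture in turn (1 to 4 markers of a list with an unadjusted p under 0.05), and that of Krt19 also without Tet2-KO replicate 2. Of 7 endothelial markers 0 were called in Tet2-KO by limma or edgeR, 1 by DESeq2, and 3 had an unadjusted p under 0.05; limma called 1 without Tet2-KO replicate 2 and 3 without Tet2-Mut replicate 1 or 2. Their median difference from the Tet2-WT mean was 0.38 in Tet2-KO replicate 1 and -0.33 in replicate 2. In Tet2-Mut the endoderm markers had a median log2 fold change of -0.46, with 4 of 16 positive. The leukocyte and endothelial medians there were -0.22 (3 of 7 positive) and -0.80 (2 of 7 positive). There edgeR called 0 of the 7 leukocyte markers and DESeq2 called 2. Limma called Krt19, Pth1r, Cd68 and Lcp1 lower in Tet2-Mut and 0 higher. None of these Tet2-Mut calls remained without each wildtype culture in turn. The part of these markers in the members' results was not tested.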

How the data were processed

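The RNA-seq libraries were deposited by the authors as a table of normalized counts, a linear signal (gene counts divided by DESeq2 size factors). Trim Galore 0.6.5, STAR 2.7.3a, featureCounts, DESeq2 and the mm10 build are listed per the submitters' processing notes; neither strand setting nor annotation is given in the sources used here. In each library every value (100%) was a whole number of steps within 0.01 reads, so reads could be recovered for the edgeR 4.0.16 and DESeq2 1.42.0 alternatives; in Tet2-WT replicate 1 the smallest value was taken as 2 reads. Even numbers made up 72.1% to 75.2% of recovered values between 1 and 20, so both mates of a pair may be counted and numbers of reads may exceed numbers of fragments. The unit differed from a plain count, so limma 3.58.1 in R 4.3.3 tested log2(value + 1) for 17338 genes with at least 10 in at least 2 libraries, in a model of group means over all 7 libraries with a prior that follows the mean (residual df 4, prior df 5.03) and Benjamini-Hochberg adjustment at 0.05 over all of them. On this scale the change of genes with low counts is understated.

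Members and lists were chosen with earlier results of these data known. Named were called members without overlap of groups and a mean of at least 50, the member with the highest mean per class and its partners, the 3 largest changes per comparison, and up to 4 genes per list with the smallest p; a length-scaled level could not be computed, so the highest normalized count was used. P-values rest on the spread between cultures and clones. The chi-square per degree of freedom was 7.19 to 13.4 between Tet2-WT cultures. It was 45.1 between the Tet2-Mut clones and 34.15 between the Tet2-KO clones. The fit takes a single spread per gene for all groups, so a wider spread between clones than between cultures is not modelled. Positions and promoters are from RefSeq (GRCm38.p6), with a position for 67 of 67 members and a promoter for 48. The result of 1 member is counted in the totals but not reported here. The bisulfite and CUT&Tag samples were not analysed here.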

Additional observations from a re-analysis of the deposited data

How the results depend on the processing

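Counts of called members (8 in Tet2-KO against Tet2-WT, 1 in Tet2-Mut against Tet2-WT and 7 in Tet2-KO against Tet2-Mut) stayed within 1.5 times under other filters, pseudocount 0.5, upper quartile scaling and a robust prior. They moved to 14, 4 and 0 with only the 2 groups compared, to 0, 0 and 0 with no mean trend in the prior (19, 8 and 18 with an unadjusted p under 0.05), and to 14, 6 and 15 with DESeq2. Tet2-Mut against Tet2-WT also gave 2 with pseudocount 10 and with edgeR, and under quantile normalization 1, Col6a5 in place of Itga7. The fit with the replicate block gave 0, 0 and 3 calls (20, 10 and 19 with an unadjusted p under 0.05); the replicate numbers only name the clones, and their deviations correlated at 0.02, -0.05 and -0.07 between groups. Leaving out each library in turn gave 0 to 14, 0 to 8 and 3 to 18 calls, and the cause of these shifts was not tested. None of the 16 called values changed sign under the 19 alternatives, whereas 78 of the 185 values that were not called did in at least 1. The depth limits Col10a1, Col25a1 and Itga11, which had libraries at or under 3 reads.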
